A study of Mus musculus with 4 samples.

Results

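Lysosomal proteases cut endocytosed and self proteins into the peptides that MHC class II molecules display, and they also degrade the invariant chain that blocks the class II groove until a peptide can bind. Mouse cortical thymic epithelial cells carry out positive selection of thymocytes. To cut such proteins they are known to use cathepsin L and the thymus-specific serine protease encoded by Prss16. Dendritic cells and B cells instead rely on cathepsin S to degrade the invariant chain. The genes described here are Prss16, the cathepsins Ctsl, Ctss, Ctsb, Ctsd, Ctsh, Ctsz and Ctsc, the asparaginyl endopeptidase gene Lgmn, and Ifi30, which encodes a lysosomal thiol reductase and not a protease. They were chosen by gene name and make up 10 of the 54532 genes in the count table, and all 10 had well over the 50 reads per pair of libraries required for a ratio.

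Bulk RNA-seq was done on medullary thymic epithelial cells (mTEC, Ly51− UEA1+) and cortical thymic epithelial cells (cTEC, Ly51+ UEA1−) of C57BL/6 mice. The 4 libraries are SCD1 knockout mTEC, littermate control mTEC, SCD1 knockout cTEC and littermate control cTEC, where SCD1 is a stearoyl-CoA desaturase that makes monounsaturated fatty acids. The age of the mice, the number of mice behind a library, the deleted part of Scd1, and whether the deletion was made in every cell are absent from the labels used here. With 1 library per group there is no replicate check on any difference, no p-value is given, and every interval is a 95% interval for counting error.

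The libraries held 15740383 to 18151725 reads assigned to genes. Scd1 had 278 reads in knockout mTEC against 1310 in control mTEC, and 73 reads in knockout cTEC against 325 in control cTEC. Of the marker lists, 10 of 11 mTEC genes were at least 2-fold higher in mTEC than in cTEC and 9 of 10 cTEC genes at least 2-fold lower, in both genotypes. Marker genes of other cell types had reads in the sorted cells. A list of 18 myeloid markers summed to 784 CPM (counts divided by the scaled library size, the usual depth unit) in knockout mTEC. It summed to 726 CPM in control mTEC, 231 in knockout cTEC and 186 in control cTEC. Of these sums, Laptm5, a gene of haematopoietic cells in general, made up 338 and 330 CPM in knockout and control mTEC. In knockout and control cTEC it made up 72.6 and 58.2 CPM. None of the 5 defining markers on the list (Csf1r, Adgre1, Itgax, Lyz2, C1qa) was at 0 in any library. The 13 thymocyte markers summed to 294 and 239 CPM in knockout and control mTEC, and to 438 and 346 CPM in knockout and control cTEC. The 5 B cell markers summed to 25.5 and 24.4 CPM in knockout and control mTEC, and to 5.25 and 4.58 CPM in knockout and control cTEC. Whether the reads of these markers came from other cells or from the epithelial cells themselves was not tested. In bulk RNA, fewer cells of a type and less RNA per cell cannot be told apart.

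The genes fell into a cortical set, a medullary set and a set less than 2-fold apart. Prss16 and Ctsl were far higher in cTEC, Ctsh, Ctsz, Ctss, Ctsc and Ifi30 were 2.45-fold to 8.31-fold higher in mTEC, and Ctsb, Ctsd and Lgmn differed by less than 2-fold. Past a 2-fold difference whose counting interval excludes equality, 5 of the 10 genes were higher in mTEC and 2 lower, in each genotype. Of all measured genes, 19.8% were 2-fold higher and 8.96% 2-fold lower in mTEC in the knockouts, and 19.0% and 8.53% in the controls. The median log2 ratio of mTEC over cTEC for the 10 genes was 0.71 in knockouts and 0.81 in controls, and for all measured genes it was −0.08 in knockouts and −0.06 in controls.

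**Figure D1:**
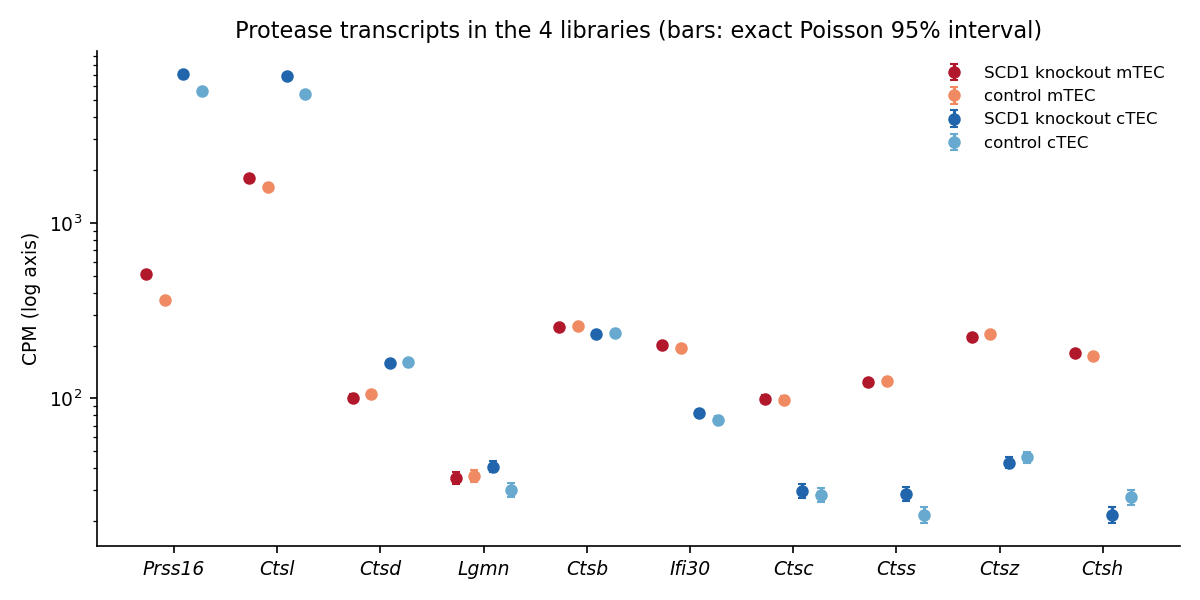
Level of each gene in each of the 4 libraries, in CPM on a log axis, with exact Poisson 95% intervals as bars. Prss16 and Ctsl stand at 5414 to 7095 CPM in both cTEC libraries, while Ctsc, Ctss, Ctsz and Ctsh fall below 50 CPM there.

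Prss16 (chr13:22002173-22009742, minus strand, mm10) encodes the thymus-specific serine protease, which in mice is needed for the selection of some CD4+ T cells. It had 8940 reads (509 CPM, 498 to 520) in knockout mTEC and 6191 reads (363 CPM, 354 to 372) in control mTEC. In cTEC it had 124382 reads (7095 CPM, 7056 to 7135) in the knockout library and 86195 reads (5639 CPM, 5602 to 5677) in the control library. Every cTEC value lay more than 10 times above every mTEC value. The transcript was 13.9-fold lower in mTEC than in cTEC in knockouts, a log2 ratio of −3.80 (−3.83 to −3.77), and 15.5-fold lower in controls, −3.96 (−3.99 to −3.92). Among all measured genes, 16 of 15962 in knockouts and 13 of 15747 in controls had a lower mTEC over cTEC ratio. By reads it was the third most abundant gene of knockout cTEC and the fourth of control cTEC, and it ranked 206 in knockout mTEC and 331 in control mTEC.

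Ctsl (chr13:64359337-64370890, minus strand) encodes cathepsin L, the cysteine protease that degrades the invariant chain in mouse cTEC. It had 31858 reads (1813 CPM) in knockout mTEC, 27346 (1605 CPM) in control mTEC, 120199 (6857 CPM) in knockout cTEC and 82753 (5414 CPM) in control cTEC. The cortical bias was smaller than that of Prss16, and mTEC also held much of it: Ctsl ranked 36 and 39 among all genes in knockout and control mTEC. Its log2 ratio of mTEC over cTEC was −1.92 (−1.94 to −1.90) in knockouts and −1.75 (−1.77 to −1.73) in controls. In the GENCODE M21 annotation, 6.09% of the exon bases of Ctsl lie in another gene on the same strand and 26.8% in one on the opposite strand. Both of those genes had 0 reads in every library, which does not show whether reads in the shared bases were given to Ctsl or dropped.

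These 2 transcripts dominated the reads of the set in cTEC. Prss16 and Ctsl together made up 95.6% of the reads of the 10 genes in knockout cTEC and 94.6% in control cTEC, against 65.6% in knockout mTEC and 61.6% in control mTEC. All 10 genes together took 1.41% of the knockout cTEC library and 1.13% of the control cTEC library, and 0.365% and 0.330% of the knockout and control mTEC libraries. There were 1.03 reads of Prss16 per read of Ctsl in knockout cTEC and 1.04 in control cTEC. In mTEC the ratio was 0.281 in the knockout library and 0.226 in the control library, where Ctsl reads prevailed. Per base of deposited gene length it was 1.61 and 1.62 in knockout and control cTEC, and 0.435 and 0.351 in knockout and control mTEC.

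Ctss (chr3:95526786-95556403, plus strand) encodes cathepsin S, the invariant chain protease of dendritic cells and B cells. It had 2165 reads (123 CPM) in knockout mTEC, 2141 (126 CPM) in control mTEC, 502 (28.6 CPM) in knockout cTEC and 332 (21.7 CPM) in control cTEC. The 2 mTEC values overlapped in their intervals and stood well above both cTEC values, by a log2 ratio of 2.10 (1.96 to 2.25) in knockouts and 2.53 (2.36 to 2.70) in controls. Reads of Ctsl outnumbered those of Ctss in all 4 libraries, by 14.7 and 12.8 to 1 in knockout and control mTEC and by 239 and 249 to 1 in knockout and control cTEC. Ctsl is the longer gene, and per base of deposited gene length the ratios were 3.08 and 2.67 in knockout and control mTEC. In knockout and control cTEC they were 50.1 and 52.2.

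Myeloid genes were also higher in mTEC. Laptm5, a lysosomal membrane protein of haematopoietic cells, had a log2 ratio of mTEC over cTEC of 2.22 in knockouts and 2.50 in controls. Ctss had 0.365 and 0.381 reads per read of Laptm5 in knockout and control mTEC, and 0.394 and 0.373 in knockout and control cTEC, with overlapping intervals in the 4 libraries. Ctsh had 0.534 and 0.532 reads per Laptm5 read in knockout and control mTEC and 0.299 and 0.470 in knockout and control cTEC. Ifi30 had 0.597 and 0.585 in mTEC and 1.13 and 1.29 in cTEC, in the same order of genotypes. In that order Ctsz had 0.66 and 0.71 in mTEC and 0.59 and 0.79 in cTEC, and Ctsc 0.30 and 0.30 in mTEC and 0.41 and 0.48 in cTEC. Laptm5 was chosen for this description after its values were seen, as a gene with a pattern close to that of Ctss. Its steady ratio to Ctss follows from that choice, and no conclusion is drawn from the difference between Ctss and the other genes. Lyz2, the lysozyme gene of macrophages, gave no single ratio: there were 0.481 (0.457 to 0.506) and 0.562 (0.533 to 0.593) reads of Ctss per Lyz2 read in knockout and control mTEC, and 0.595 and 0.536 in knockout and control cTEC. Of the 18 myeloid markers, 10 of 16 measured in knockouts and 13 of 15 measured in controls were at least 2-fold higher in mTEC. The part of macrophages, dendritic cells or B cells in the Ctss reads was not tested.

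Ctsh (chr9:90054152-90076089, plus strand) encodes cathepsin H, an aminopeptidase, and had the largest medullary bias of the set. Its level was 180 CPM (3168 reads) in knockout mTEC, 175 CPM (2986 reads) in control mTEC, 21.7 CPM (380 reads) in knockout cTEC and 27.3 CPM (418 reads) in control cTEC. Both mTEC libraries were thus over 6 times above both cTEC libraries, with log2 ratios of 3.05 (2.90 to 3.21) in knockouts and 2.68 (2.53 to 2.83) in controls. Ctsz (chr2:174427493-174439039, minus strand), the gene of the carboxypeptidase cathepsin Z, had 223 and 233 CPM in knockout and control mTEC against 43.0 and 46.1 CPM in knockout and control cTEC. Its log2 ratio was 2.37 (2.26 to 2.49) in knockouts and 2.34 (2.22 to 2.46) in controls.

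Ctsc (chr7:88278085-88310888, plus strand) encodes the dipeptidyl peptidase cathepsin C, which activates granule serine proteases of immune cells. It had 99.8 and 98.0 CPM in knockout and control mTEC, and 29.7 and 28.1 CPM in knockout and control cTEC. The medullary excess was 3.36-fold in knockouts, log2 1.75 (1.61 to 1.89), and 3.48-fold in controls, log2 1.80 (1.65 to 1.96). Ifi30 (chr8:70762774-70766663, minus strand) encodes the thiol reductase that opens disulfide bonds so that proteases can reach a folded antigen. It had 201 and 193 CPM in knockout and control mTEC against 82.1 and 75.3 CPM in knockout and control cTEC, which gave log2 ratios of 1.29 (1.21 to 1.38) in knockouts and 1.36 (1.26 to 1.45) in controls.

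Of the remaining endopeptidases, Ctsb was close to evenly shared and Ctsd was higher in cTEC by less than 2-fold. Ctsb (chr14:63122462-63145923, plus strand), the gene of cathepsin B, had 254 and 259 CPM in knockout and control mTEC and 234 and 237 CPM in knockout and control cTEC. That is a log2 ratio of 0.12 (0.05 to 0.18) in knockouts and 0.13 (0.07 to 0.19) in controls. Ctsd (chr7:142375911-142388038, minus strand), which encodes the aspartic protease cathepsin D, had 101 and 106 CPM in knockout and control mTEC and 160 and 161 CPM in knockout and control cTEC. It was lower in mTEC by log2 ratios of −0.66 (−0.75 to −0.58) and −0.60 (−0.69 to −0.52) in knockouts and controls, short of 2-fold. Ctsd shares 34.4% of its exon bases on the same strand with Gm49369, which had 0 reads in all 4 libraries, and Ctsb shares 12.8% on the opposite strand with Fdft1. Whether reads in the shared bases were given to Ctsd and Ctsb or dropped is not known.

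Lgmn (chr12:102394084-102439813, minus strand) encodes legumain, which cuts after asparagine and matures other cathepsins. It was low everywhere, with 616 reads (35.1 CPM) in knockout mTEC, 615 (36.1 CPM) in control mTEC, 716 (40.8 CPM) in knockout cTEC and 461 (30.2 CPM) in control cTEC. It alone among the 10 genes had a mTEC over cTEC ratio of opposite sign in the 2 genotypes. The log2 ratio was −0.22 (−0.38 to −0.06) in knockouts and 0.26 (0.08 to 0.44) in controls, both under 2-fold, and the knockout cTEC library was the highest of the 4.

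**Figure D2:**
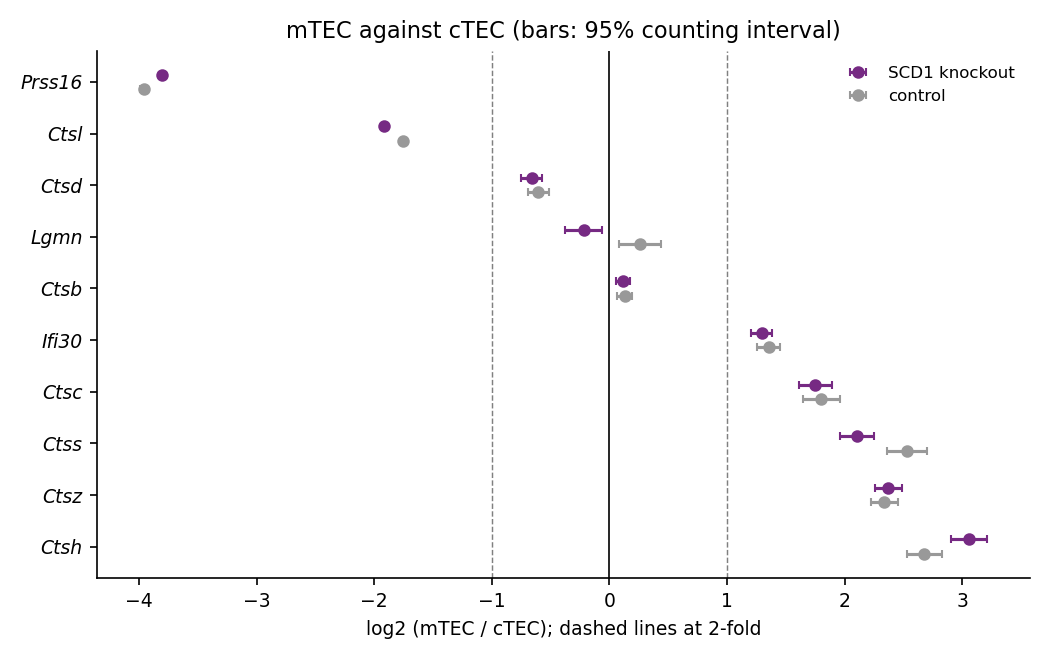
Log2 ratio of mTEC over cTEC for each gene in knockouts (upper point) and controls (lower point), with 95% counting intervals and dashed lines at 2-fold. Prss16 and Ctsl lie left of −1 and Ifi30, Ctsc, Ctss, Ctsz and Ctsh right of 1 in both genotypes, and Lgmn crosses 0 between them.

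Levels of different genes can be set side by side only per length. On reads per kilobase of deposited gene length, scaled to library size, Ctsl led in mTEC with 279 in the knockout and 247 in the control library, followed by Ifi30 with 205 and 197 and Ctsz with 154 and 162. Prss16 stood at 122 in knockout mTEC and 86.8 in control mTEC, and Ctss at 90.7 and 92.5. In cTEC, Prss16 led with 1696 in the knockout and 1348 in the control library and Ctsl followed with 1057 and 834. The next gene, Ifi30, was at 83.7 in knockout cTEC and 76.8 in control cTEC.

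These orders rest on the length used. The deposited length of Ctsl, 6489 bases, joins the exons of several transcripts. With its shortest principal GENCODE transcript of 1971 bases, Ctsl came to 3479 and 2747 in knockout and control cTEC, above Prss16 at 3292 and 2617, whose principal transcript has 2155 bases. In mTEC the same transcript lengths gave Ctsl 920 and 814 in the knockout and control libraries, Prss16 236 and 169, Ctsh 112 and 108, and Ctss 90.9 and 92.7. Ctsl thus led in mTEC with either length, while Prss16 and Ctss, close to each other with the deposited lengths, were apart with the principal transcripts. Ctsh had 40.1 and 38.9 in knockout and control mTEC with its deposited length. Gene-level counts do not show which transcripts the cells made.

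Promoter sequences were available for 7 of the 10 genes from RefSeq on GRCm38.p6, and not for Prss16, Ctsb or Ctsh. They are windows of 250 bases before to 50 bases after an annotated start. The 4 shown pair the abundant cathepsin of the cortex and Ctsd, less than 2-fold apart between mTEC and cTEC, with 2 genes of the medullary set. Capitals mark the matches to 6 short motifs searched on both strands: CACGTG (the core E-box of the TFEB family, which drives lysosomal genes), TTCNNNGAA (STAT), GAAANNGAA (interferon regulatory factors), CCAAT (NF-Y), GGGCGG (GC box) and TGACTCA (AP-1). The matches shown do not overlap each other. The windows are chr13:64370471-64370770 (minus strand) for Ctsl, chr7:142387778-142388077 (minus) for Ctsd, chr3:95526536-95526835 (plus) for Ctss and chr8:70766614-70766913 (minus) for Ifi30, each written 5′ to 3′ on the gene's strand.
Ctsl: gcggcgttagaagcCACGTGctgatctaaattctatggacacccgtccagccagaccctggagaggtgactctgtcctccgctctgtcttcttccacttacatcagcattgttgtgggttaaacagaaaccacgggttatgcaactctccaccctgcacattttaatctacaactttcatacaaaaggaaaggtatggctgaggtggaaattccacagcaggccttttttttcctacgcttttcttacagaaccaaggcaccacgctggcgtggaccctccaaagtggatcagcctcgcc
Ctsd: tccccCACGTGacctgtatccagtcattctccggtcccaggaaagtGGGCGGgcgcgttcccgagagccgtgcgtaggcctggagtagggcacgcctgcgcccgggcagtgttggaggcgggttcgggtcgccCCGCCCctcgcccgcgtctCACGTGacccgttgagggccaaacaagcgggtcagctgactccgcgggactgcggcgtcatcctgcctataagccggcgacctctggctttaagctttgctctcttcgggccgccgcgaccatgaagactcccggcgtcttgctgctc
Ctss: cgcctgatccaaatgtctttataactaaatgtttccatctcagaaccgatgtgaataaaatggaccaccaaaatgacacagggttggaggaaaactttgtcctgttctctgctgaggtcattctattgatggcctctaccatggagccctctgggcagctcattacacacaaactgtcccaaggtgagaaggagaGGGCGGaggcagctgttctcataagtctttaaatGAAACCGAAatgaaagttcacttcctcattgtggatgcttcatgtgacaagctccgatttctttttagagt
Ifi30: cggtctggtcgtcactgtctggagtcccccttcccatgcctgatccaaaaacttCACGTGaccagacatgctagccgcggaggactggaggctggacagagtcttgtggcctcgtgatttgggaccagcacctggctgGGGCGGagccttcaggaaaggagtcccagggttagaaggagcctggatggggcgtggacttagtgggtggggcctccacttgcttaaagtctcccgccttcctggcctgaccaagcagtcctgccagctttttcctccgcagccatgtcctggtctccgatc

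The E-box core occurred in the windows of Ctsl (first base at −236 from the start), Ctsd (−245 and −98) and Ifi30 (−196), and in a second window of Lgmn (−49). Among 27025 promoter windows, the first listed for each gene, 7.24% hold it, and the Lgmn match lies outside such a first window. Ctsl was the only cortical gene with a window. Of the medullary genes, Ifi30 had a match, Ctsz, Ctss and Ctsc had windows without it, and Ctsh had no window. The GAAANNGAA match in Ctss began at −21, and 8.57% of these first windows have one. Ctsc had a TTCNNNGAA match at −236, found in 8.47% of windows. GC boxes stood in 6 of the 7 genes, all but Ctsl, against 35.9% of these windows. CCAAT stood in Ctsz and Lgmn against 37.9%, and TGACTCA in none of the 7 against 5.17%. The Ctsl window and the second Lgmn window lie inside the deposited spans of these genes, which reach 64370890 and 102439813 (minus strand). Both windows thus belong to internal annotated starts and do not show the sequence before the outermost start. The Ctsd window and the first Lgmn window also belong to internal starts. The deposited spans of these genes end within those windows, at 142388038 for Ctsd. A match is a run of letters and was not tested as a binding site.

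The loss of SCD1 was set against littermate controls within each population. In mTEC, Prss16 stood 1.40-fold higher in the knockout library, Ctsl 1.13-fold higher, and the other 8 genes within 1.05-fold of the control. In cTEC, Prss16, Ctsl, Ctss and Lgmn were 1.26-fold to 1.35-fold higher in the knockout library and Ctsh 1.26-fold lower. No member reached 2-fold in either population, where 0.504% of measured genes were 2-fold higher and 0.431% 2-fold lower in mTEC, and 0.492% and 0.706% in cTEC. Past 1.2-fold with an interval that excludes equality, 1 of 10 was higher and 0 lower in knockout mTEC, against 5.9% and 4.29% of all measured genes. In knockout cTEC 4 of 10 were higher and 1 lower, against 7.12% and 7.19% of all measured genes. The median log2 ratio of the 10 genes was −0.001 in mTEC and 0.10 in cTEC, and of all measured genes 0.01 in both.

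**Figure D3:**
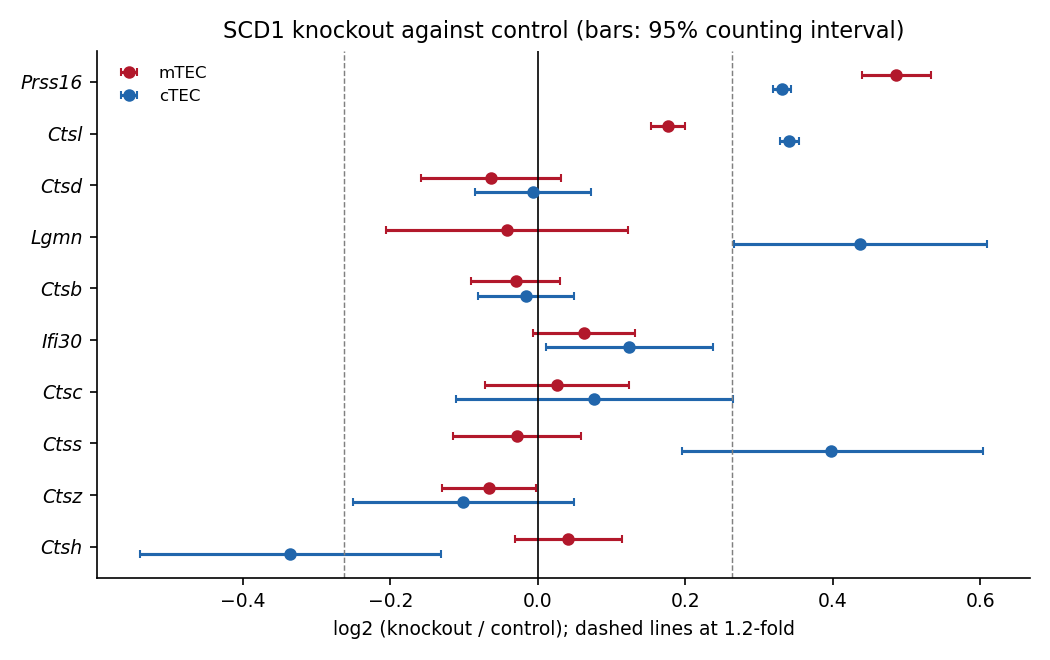
Log2 ratio of SCD1 knockout over control for each gene in mTEC (upper point) and cTEC (lower point), with 95% counting intervals and dashed lines at 1.2-fold. Prss16 is right of the dashed line in both populations, Ctsl, Lgmn and Ctss in cTEC, and Ctsh left of it in cTEC.

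Prss16 had 509 CPM in knockout mTEC against 363 in control mTEC, a log2 ratio of 0.49 (0.44 to 0.53), and 7095 in knockout cTEC against 5639 in control cTEC, 0.33 (0.32 to 0.34). Ctsl had log2 ratios of 0.18 (0.15 to 0.20) in mTEC and 0.34 (0.33 to 0.35) in cTEC. Both knockout libraries were above their controls for both genes. Among 79 genes with a mean of at least 1000 CPM in cTEC, a level chosen after the values were seen, 4 were past 1.2-fold higher, namely Ctsl, Prss16, the cTEC marker Tbata and the mitochondrial mt-Cytb. Another 3, Fcgbp and Igfbp5 among them, were past 1.2-fold lower. In mTEC, 1 of 71 such genes, mt-Rnr1, was past 1.2-fold higher and 1, Chga, lower, and Prss16 was below this level and not among the 71.

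**Figure D4:**
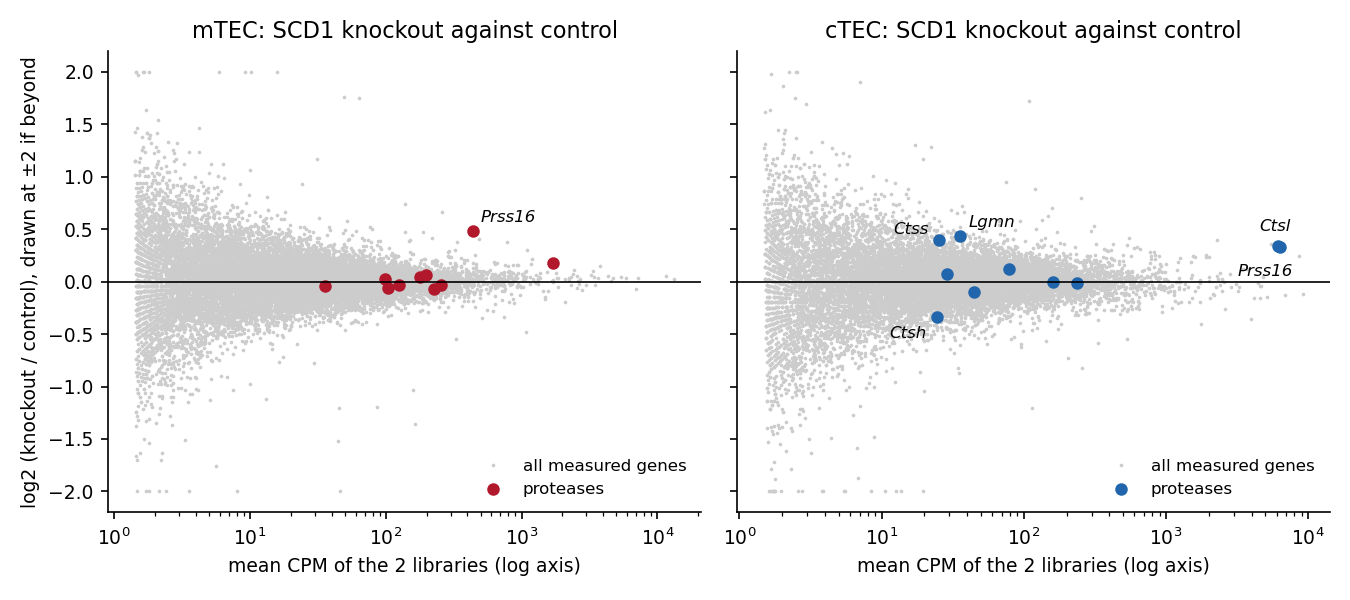
Log2 ratio of SCD1 knockout over control against the mean CPM of both libraries (log axis) for all measured genes (grey) and the 10 genes (coloured), in mTEC (left) and cTEC (right). Prss16 and Ctsl sit at the abundant end of cTEC, at 0.33 and 0.34, above most genes of similar level.

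Cortical marker genes stood higher in the knockout libraries as well. All 10 had log2 ratios above 0 in both populations, with medians of 0.22 in mTEC and 0.28 in cTEC, and 5 of 10 were past 1.2-fold higher in each. Psmb11, the cortical thymoproteasome subunit, had 58.4 CPM in knockout mTEC against 41.4 in control mTEC and 696 in knockout cTEC against 554 in control cTEC. There were 8.71 and 8.77 reads of Prss16 per read of Psmb11 in knockout and control mTEC. In each of the knockout and control cTEC libraries there were 10.2, so the ratio hardly differed between genotypes. Psmb11 was the gene with the pattern closest to that of Prss16 over these same 4 libraries. A steady ratio follows from that closeness, and no conclusion is drawn from it. Ctsl had 9.85 and 9.78 reads per Psmb11 read in knockout and control cTEC, but 31.1 and 38.7 in knockout and control mTEC. Thymocyte markers were higher in the knockouts too, with 6 of 12 past 1.2-fold in mTEC and 9 of 12 in cTEC. So were endothelial markers, which summed to 426 reads in knockout mTEC against 254 in control mTEC and to 451 in knockout cTEC against 245 in control cTEC, with 3 of 4 and 2 of 3 measured genes past 1.2-fold in mTEC and cTEC. The median log2 ratio of the mTEC markers was 0.05 in mTEC, with 0 of 11 past 1.2-fold, and −0.19 in cTEC, with 2 of 11 past 1.2-fold lower. Whether the share of cortical cells, of thymocyte or endothelial RNA or the level per cell set the Prss16 and Ctsl values was not tested.

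Among the less abundant genes of cTEC, Lgmn had 40.8 CPM in the knockout library against 30.2 in the control, a log2 ratio of 0.44 (0.27 to 0.61). Ctss had 28.6 CPM in knockout cTEC against 21.7 in control cTEC, 0.40 (0.20 to 0.60), and Ctsh 21.7 against 27.3, −0.34 (−0.54 to −0.13). These rest on 332 to 716 reads per library, and their intervals are accordingly wide. Myeloid markers were higher in knockout cTEC by a median log2 ratio of 0.32 over 13 measured genes, 5 of them past 1.2-fold, and Laptm5 had 0.32 there. In mTEC the myeloid median was 0.15 with 5 of 16 past 1.2-fold, and Ctss had −0.03 (−0.11 to 0.06). The part of myeloid RNA in the Ctss and Lgmn values was not tested.

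The rest of the set hardly differed between genotypes. Ctsb had log2 ratios of −0.03 (−0.09 to 0.03) in mTEC and −0.02 (−0.08 to 0.05) in cTEC, and Ctsd −0.06 (−0.16 to 0.03) and −0.01 (−0.09 to 0.07). For these genes the counting error excludes a change of 1.2-fold in either direction between the libraries compared. Ctsz had −0.07 (−0.13 to −0.002) in mTEC and −0.10 (−0.25 to 0.05) in cTEC, Ctsc 0.03 (−0.07 to 0.12) and 0.08 (−0.11 to 0.26), and Ifi30 0.06 (−0.01 to 0.13) and 0.12 (0.01 to 0.24). Ifi30, Ctss and class II genes are known interferon-induced genes. Of 12 interferon response genes, 10 had ratios below 0 in each population, with medians of −0.08 in mTEC and −0.19 in cTEC, and 1 and 5 were past 1.2-fold lower in mTEC and cTEC.

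The genotype ratio differed between mTEC and cTEC beyond counting error for 5 of the 10 genes, as it did for 24.2% of 13953 genes measured in both. The difference of the log2 ratios, mTEC minus cTEC, was 0.15 (0.11 to 0.20) for Prss16 and −0.16 (−0.19 to −0.14) for Ctsl, in opposite directions. It was −0.43 (−0.64 to −0.21) for Ctss, 0.38 (0.16 to 0.59) for Ctsh and −0.48 (−0.71 to −0.25) for Lgmn. Psmb11, the gene closest in pattern to Prss16 over these libraries, had 0.16 (0.02 to 0.31).

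The genes with the pattern most like that of Prss16 over the 4 libraries, by distance between centred log2 CPM among 10344 protein-coding genes with a mean of at least 10 CPM, were Psmb11 (0.22), Syngr1 (0.22), Snhg11 (0.22), Cys1 and the cTEC marker Ackr4. For Ctsl they were Scnn1g (0.05), Nin, Ociad2, Pepd and Mblac2, and for Ctss Orai2 (0.06), Laptm5 (0.08), Fam129c, Smtnl1 and 4930590J08Rik. These distances rest on 4 libraries and were not tested.

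Other lysosomal and antigen-processing genes were read from lists. Of 6 measured other cathepsins, 3 were 2-fold higher and 1 lower in mTEC in knockouts, and 2 higher and 1 lower in controls. Ctsa, the carboxypeptidase that protects lysosomal sialidase, was the lower one, at log2 −1.37 in knockouts and −1.20 in controls, and Ctsk, the collagen-degrading cathepsin K, was higher at 1.82 and 1.38. Of 6 other lysosomal peptidases, 4 in knockouts and 3 in controls were 2-fold higher in mTEC and none lower. These were the aspartic protease gene Napsa (1.83 in knockouts and 2.15 in controls), the prolyl carboxypeptidase gene Prcp (1.46 and 1.37), Scpep1 (1.29 and 1.28) and, in knockouts, Dpp7 (1.07, with 0.65 in controls).

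Genes of a list of protease inhibitors, not all of them inhibitors of the proteases described here, were split as well. Serpinb1a stood higher in mTEC, at log2 2.17 in knockouts and 2.18 in controls, and so did the cystatin gene Cst6 at 1.57 and 1.35. Cstb, the gene of cystatin B, an inhibitor of cathepsins L, H and S, was lower in mTEC at −1.41 and −1.27. Serpinb3a was lower in mTEC too, with 6.43 CPM in knockout mTEC against 12.8 in knockout cTEC. In the controls it had 3.46 CPM in mTEC against 7.13 in cTEC. In knockout cTEC Cstb was past 1.2-fold higher than in control cTEC, at 0.28. The largest genotype ratio among the inhibitors was that of Serpinb3a, with 113 reads in knockout mTEC against 59 in control mTEC and 224 in knockout cTEC against 109 in control cTEC, log2 0.89 and 0.84.

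General lysosomal genes showed little of the medullary excess. None of 10 genes for sorting hydrolases to the lysosome and none of 16 proton pump genes was 2-fold apart between mTEC and cTEC in either genotype, and their median log2 ratios lay between −0.21 and −0.28. Of 7 measured lysosome regulators 1, Mitf, was 2-fold lower in mTEC, at −2.23 in knockouts and −2.04 in controls, whereas Tfeb had −0.19 and −0.09. Of 8 membrane genes, Lamp2 was lower at −1.27 and −1.14 and the sialic acid exporter gene Slc17a5 higher at 1.51 and 1.43. Among 18 sugar and lipid hydrolases, Gusb was higher at 1.91 and 2.04, and Asah1 lower in knockouts at −1.37, with −0.78 in controls. Of 10 class II partners, whose median was 0.44 in knockouts and 0.34 in controls, H2-Ob was higher in mTEC at 1.74 and 1.46, and H2-Oa at 1.08 in knockouts with 0.99 in controls. Both encode subunits of H2-O, a regulator of peptide loading.

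**Figure D5:**
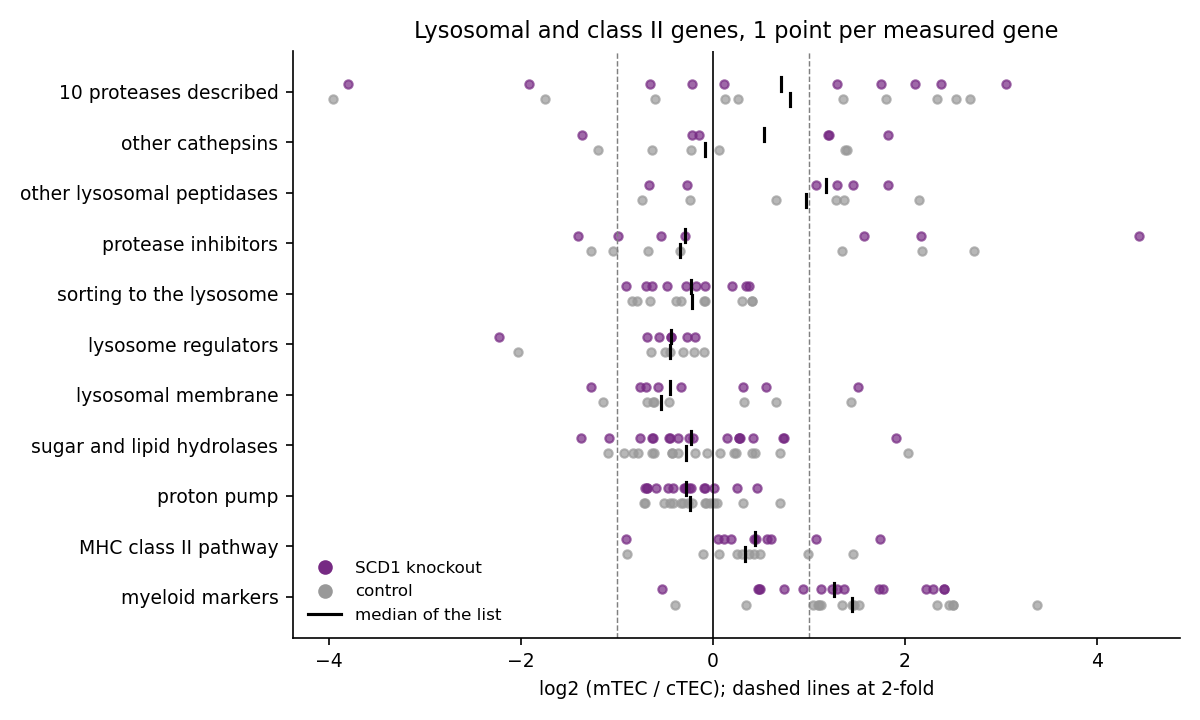
Log2 ratio of mTEC over cTEC for each measured gene of the 10 and of the related lists, in knockouts (upper row) and controls (lower row), with list medians as black ticks and dashed lines at 2-fold. The 10 genes run from −3.80 to 3.05 in knockouts, while the sorting and proton pump genes stay within 2-fold.

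Between genotypes these lists moved little. In mTEC, 0 of 10 sorting, 0 of 7 regulator, 0 of 8 membrane, 0 of 16 proton pump and 0 of 10 class II genes were past 1.2-fold in either direction. Past 1.2-fold higher there were 1 of 18 sugar and lipid hydrolases, 1 of 6 other lysosomal peptidases and 1 of 9 measured inhibitors. In cTEC, Asah1, the gene of acid ceramidase, had 1959 reads in the knockout against 1142 in the control library, log2 0.58, and Lipa, the gene of lysosomal acid lipase, 538 against 343, log2 0.45. Smpd1, the acid sphingomyelinase gene, was past 1.2-fold lower at −0.38. Of the 16 proton pump genes, 14 had ratios above 0 in cTEC, with a median of 0.12, against 7557 of all 14445 measured genes. The 2 past 1.2-fold higher were Atp6v1c1 (0.34) and Atp6v1f (0.27).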

How the data were processed

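Raw counts for 4 libraries were deposited by the authors, with a gene length in bases (an other unit, per the file headers). Per the submitters' processing notes, the tools were CASAVA, HISAT2 (2.0.5) and featureCounts (1.5.0-p3), with build mm10. Annotation release, strand setting and handling of multi-mapping reads were not given in the sources used here, so reads of overlapping genes may not be separable.

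Counts were scaled by the trimmed mean of M-values in edgeR 4.0.16 (R 4.3.3), with factors of 0.966 to 1.03, and given as CPM with exact Poisson intervals. Log2 ratios used a prior count of 0.5 and exact conditional binomial (Clopper-Pearson) 95% intervals, and the difference of ratios a delta-method interval. Reads are not independent molecules, so intervals cover counting error only. A gene was measured with 50 reads over a pair, and past a fold (2-fold, for genotype also 1.2-fold) when its interval also excluded equality. No p-value was computed with 1 library per group.

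The members and gene lists were chosen with earlier results of these data known. Named list genes are those past 2-fold and those with the highest or lowest genotype ratios, given as examples; some list members are not reported here. Alternatives were DESeq2 1.42.0 size factors, total reads, upper quartile scaling, a prior count of 2, minimums of 200 reads or none, and other transcript lengths. Overlaps and lengths came from GENCODE M21, promoters from RefSeq GRCm38.p6. Further steps used Python 3.11.15 and scipy 1.17.1.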

Additional observations from a re-analysis of the deposited data

How the results depend on the processing

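Across 3 other scalings and a prior count of 2, each of the 40 log2 ratios of the 10 genes shifted by at most 0.09, 0.04, 0.03 and 0.01 (total reads, upper quartile, DESeq2 size factors, prior count). The counts of members past 1.2-fold and 2-fold did not change by more than 1.5 times. Of the signs, that of Ctsd in cTEC, knockout over control, turned to 0.01 under upper quartile scaling, and it was never past a fold. With total reads, the median ratio of mTEC over cTEC in knockouts was 0.80 (0.71 with the scaling used). The counts over all genes depend on the read minimum by construction, since it changes which genes are measured. Past 2-fold between genotypes, 154 genes in mTEC became 19 with 200 reads and 992 with no minimum, and 173 in cTEC became 20 and 1182. Past 1.2-fold in mTEC, 1678 became 1061 and 2534. Past 2-fold between mTEC and cTEC, 4592 in knockouts became 2515 and 8136, and 4333 in controls 2353 and 7790. The median log2 ratio of all genes between mTEC and cTEC was −0.15 with 200 reads and 0.25 with no minimum in knockouts, and −0.12 and 0.26 in controls. The transcript length alternatives were chosen after seeing the data. No paired analysis was possible because each group has 1 library and no replicate number to pair by, and no library can be left out for the same reason. Of the genotype ratios, those of Ctsh, Ctss and Ctsc in cTEC had the widest counting intervals, with 332 to 520 reads per library.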

Other observations

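A family of cathepsins that rodents express in the placenta was found at low level in mTEC. The 9 genes of the family in the table lie within chr13:60798250-61570127, on the chromosome that also carries Ctsl. They summed to 93 reads in knockout mTEC and 64 in control mTEC, against 3 in knockout cTEC and 0 in control cTEC. The knockout mTEC level was 26.7 times that of knockout cTEC (10.3 to 153). For control mTEC over control cTEC, the lower limit of the counting interval was 15.1-fold. With 3 reads put in place of the 0 of control cTEC, the ratio was 19.1-fold. Ctsj had the most of any single gene, with 36 and 29 reads in knockout and control mTEC against 2 and 0 in knockout and control cTEC. Cts6 had 15 reads in each mTEC library and Ctsq 16 and 11, in knockout and control mTEC, with 0 in both cTEC libraries. Genes of low count leaned to mTEC in general. At least 10 reads were held by 19654 and 19539 genes in knockout and control mTEC, against 17040 and 16839 in cTEC. With no read minimum the median log2 ratio of mTEC over cTEC of all genes was 0.25 and 0.26, in that order. An excess in mTEC at this level is thus not particular to this family.

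The stefins, which inhibit cysteine cathepsins, included mTEC-biased genes of similarly low level, a lean that genes of low count shared in general. Stfa3 had 54 and 62 reads in knockout and control mTEC against 2 and 8 in knockout and control cTEC, and Stfa1 had 17 in each mTEC library against 0 and 4. Serpinb13, whose human counterpart inhibits cathepsins L and K, had 45 and 43 reads in knockout and control mTEC against 0 and 1 in knockout and control cTEC. Ctsg, a serine protease of neutrophil granules, had 8 and 12 reads in knockout and control mTEC and 0 in both cTEC libraries. Stefins and placental cathepsins are multigene families, and how reads shared between copies were counted was not given in the sources used here, so values of single genes are uncertain.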
